A study of Mus musculus with 10 samples.

Results

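Melanin synthesis and melanocyte transcripts were examined in RNA from CD31-positive cells, that is, cells sorted for an endothelial surface protein, isolated from mouse B16F10 melanomas. The set comprised 10 genes chosen by name for their role in pigment cells, out of 28454 gene symbols in the deposited tables: Tyr, Tyrp1, Dct, Pmel, Mlana, Gpr143, Slc45a2, Trpm1, Mitf and Sox10. Slc45a2 was listed in 2 rows, so the set filled 11 rows, and all 11 rows passed the filter of at least 1 FPKM in at least 4 libraries. B16F10 is an established line of pigmented melanoma cells, and CD11b-positive myeloid cells were removed before the CD31 selection. The set was thus chosen for a cell type other than the one the sort selects. Which cells each member transcript came from was not tested.

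The 4 wild-type libraries came from adult mice of the Cdh5-CreERt2 strain, and the 6 Shb-inactivated libraries from adult Shbflox/flox/Cdh5-CreERt2 mice. Both groups therefore carry the inducible Cre recombinase under the promoter of Cdh5, a gene active in endothelium, and differ by the floxed allele of Shb, the gene of an SH2-domain adaptor protein. The tumour cells were of the B16F10 line in both groups and did not come from the floxed mice. The tissue label names tumours, although the source label also names lungs. The libraries are called W1 to W4 (wild-type) and S1 to S6 (Shb-inactivated) by their replicate numbers. Values are FPKM, fragment counts scaled to transcript length and to the mapped fragments of the library, so levels are per length and may be compared between genes.

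Shb, the targeted gene, was 5.44, 3.27, 2.78 and 3.24 FPKM in W1 to W4. It was 0.97, 1.37, 0.64, 1.44, 0.37 and 0.86 FPKM in S1 to S6, and the groups did not overlap.

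Pigment cells make melanin in melanosomes, organelles related to lysosomes. Tyrosinase (Tyr) oxidises tyrosine, and its relatives Dct and Tyrp1 act on later intermediates. The amyloid-forming protein Pmel and the membrane protein Mlana build the organelle, and the transporter Slc45a2 and the receptor Gpr143 regulate it. The transcription factor Mitf activates most of these genes through an E-box with the letters CATGTG, known as the M-box core, and Sox10, a factor of neural crest cells, acts upstream of Mitf.

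Promoter sequences are shown as background. Any part of the motif in the levels measured here was not tested. RefSeq windows on GRCm38.p6 were found for 5 of the 10 genes, and 4 of them (Tyr, Tyrp1, Dct and Trpm1) held CATGTG on either strand within 250 bases before a RefSeq start site. In each of these 4 a match extended to TCATGTG. Of all 32851 RefSeq windows of that length, 12.3% held CATGTG and 3.25% held TCATGTG, shares by window where the counts above are by gene. The 3 windows of Mitf and the second of 2 windows of Trpm1 held no CATGTG. In the lines that follow capitals mark the match on either strand, and positions count back from the base before the start site. The Tyr window (chr7:87493513-87493762, minus strand) has its match at -21. The Dct window (chr14:118052247-118052496, minus strand) has matches at -150 and, on the opposite strand, at -232. The Trpm1 window (chr7:64153585-64153834, plus strand) has its match at -141. Of Tyrp1 a 30-base stretch is shown (chr4:80834155-80834184, plus strand), with its match at -46, since the annotation GENCODE vM21 starts the gene 90 bases earlier.
Tyr: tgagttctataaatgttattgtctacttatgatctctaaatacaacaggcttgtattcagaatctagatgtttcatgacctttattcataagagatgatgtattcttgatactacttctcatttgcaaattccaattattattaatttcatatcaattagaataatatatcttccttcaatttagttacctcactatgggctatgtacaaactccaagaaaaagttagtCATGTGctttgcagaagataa
Dct: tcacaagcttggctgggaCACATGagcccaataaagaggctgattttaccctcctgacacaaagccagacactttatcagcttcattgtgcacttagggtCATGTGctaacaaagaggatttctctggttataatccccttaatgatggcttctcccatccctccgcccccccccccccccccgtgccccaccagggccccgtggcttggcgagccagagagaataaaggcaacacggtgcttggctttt
Trpm1: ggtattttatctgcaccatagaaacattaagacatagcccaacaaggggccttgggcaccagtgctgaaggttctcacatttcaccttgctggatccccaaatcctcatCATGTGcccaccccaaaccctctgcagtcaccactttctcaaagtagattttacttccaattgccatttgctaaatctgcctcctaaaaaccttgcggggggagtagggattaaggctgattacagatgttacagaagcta
Tyrp1: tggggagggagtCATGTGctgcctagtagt

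Within each group, libraries differed in small nucleolar RNA and in myeloid transcripts. Summed small nucleolar RNA was 636 to 1851 FPKM in 3 libraries (W1 and S1 and S2) and 3138 to 11470 FPKM in the other 7. The myeloid lysozyme Lyz2 was 1577 to 2944 FPKM in W3, S3 and S4, and 16.9 to 292 FPKM elsewhere. The 13 pan-endothelial markers, led by Pecam1 and Egfl7, were all tested, and their summed level was 3427 to 4396 FPKM in wild-type and 3935 to 5603 FPKM in Shb-inactivated libraries. Pecam1 was 569 to 864 FPKM in wild-type and 873 to 1237 FPKM in inactivated libraries, so the groups did not overlap in it. Cdh5, the gene whose promoter drives Cre, was 374 to 429 FPKM in wild-type and 422 to 616 FPKM in inactivated libraries. Itgam, the transcript of CD11b, was 29.3 to 109 FPKM in the 3 myeloid-rich libraries and 0.20 to 5.85 FPKM in the rest. Total FPKM per library ran from 477329 to 576687, which keeps no read totals, and the number of reads behind them is not known. Olfactory and vomeronasal receptor genes with low values were most often at 0.1 FPKM in W1, at 0.07 FPKM in S2 and at 0.01 to 0.03 FPKM elsewhere, so low members are the least precise in those 2 libraries.

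The enzymes of melanin synthesis were present in every library, at levels that differed up to 102-fold between libraries. Dct, dopachrome tautomerase, was 419, 69.0, 106 and 31.5 FPKM in W1 to W4. In S1 to S6 it was 5.63, 49.0, 23.8, 132, 4.55 and 34.6 FPKM. W1 was the highest, 3.18 times S4, which was second, and S1 and S5 were the lowest. The groups overlapped, with 3 of the 6 inactivated libraries below the lowest wild-type library.

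Tyrp1, which acts late in eumelanin synthesis, was 337, 59.9, 63.6 and 26.8 FPKM in the wild-type libraries. It ran from 3.31 through a median of 23.8 to 80.9 FPKM in the inactivated ones. Tyr, the rate-limiting enzyme, was 26.9, 6.40, 4.98 and 3.05 FPKM in wild-type and 0.46 to 6.52 FPKM (median 2.25) in inactivated libraries. For all 3 enzymes W1 was the highest library and S5 the lowest. Tyr lay far below its relatives: its level was 0.0469 to 0.101 of that of Dct in the same library.

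The melanosome proteins followed the enzymes, apart from Gpr143. Pmel was 175, 24.2, 64.2 and 10.8 FPKM in wild-type and 1.31 to 79.9 FPKM (median 11.1) in inactivated libraries. Mlana was 91.7, 19.9, 24.1 and 9.05 FPKM in wild-type and 1.48 to 26.0 FPKM (median 8.36) in inactivated libraries. Both were highest in W1 and lowest in S5. Gpr143, a melanosomal receptor known from ocular albinism, was 5.22, 1.49, 1.37 and 1.12 FPKM in wild-type libraries, and 1.16, 1.58, 0.98, 2.13, 2.55 and 0.96 FPKM in S1 to S6. Its second highest library was S5, where Dct was at its lowest, and its highest and lowest libraries differed 5.44-fold.

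The transporter and the channel were low and varied at least as widely as the enzymes. The first Slc45a2 row was 26.2, 5.09, 5.11 and 2.08 FPKM in wild-type and 0.22 to 6.72 FPKM (median 1.92) in inactivated libraries. The second row was 35.01, 2.31, 1.95 and 1.53 FPKM in wild-type and 0.19 to 3.93 FPKM (median 0.535) in inactivated libraries. The tables do not say how the rows differ, and the second was 0.151 to 1.34 of the first, with the highest ratio in W1. Trpm1, a cation channel of melanocytes whose gene hosts the microRNA Mir211, was 40.0, 9.91, 11.6 and 4.06 FPKM in wild-type and 0.21 to 11.9 FPKM (median 4.09) in inactivated libraries.

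Mitf was 39.5, 10.7, 17.3 and 3.47 FPKM in wild-type libraries and 1.00 to 14.7 FPKM (median 5.32) in inactivated ones. Sox10 was 17.3, 1.63, 1.60 and 0.75 FPKM in wild-type libraries and 0.06 to 2.94 FPKM (median 0.585) in inactivated ones. Mitf was lowest in S1 and Sox10 in S5, and both were highest in W1. By their mean over the 10 libraries the order of levels was Dct (87.5 FPKM), Tyrp1 (66.0), Pmel (40.4), Mlana (21.5), Mitf (10.7), Trpm1 (9.36), Tyr (5.78), the Slc45a2 rows (5.42 and 4.94), Sox10 (2.79) and Gpr143 (1.86). Every neighbouring pair in this order differed by less than its spread over libraries, although Dct was above Tyrp1 within each library. The high level in W1 also weighs on these means: over the inactivated libraries Gpr143 (1.56 FPKM) was above the second Slc45a2 row (1.44) and Sox10 (1.11).

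**Figure D1:**
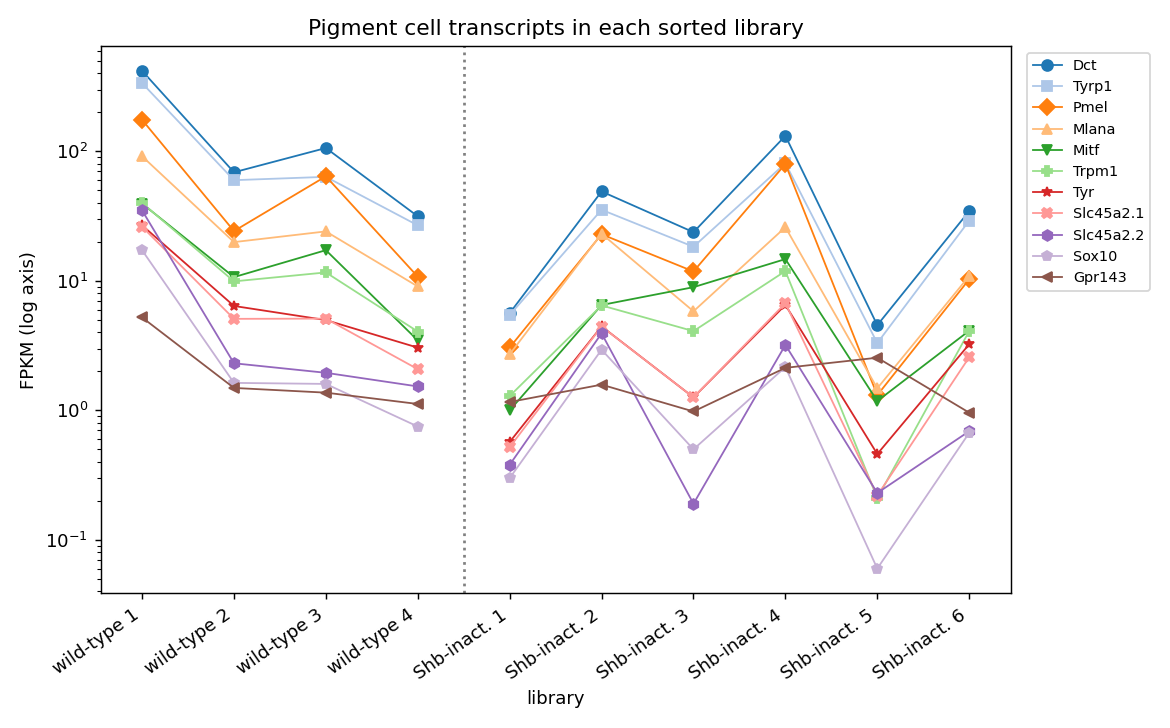
FPKM of the 11 member rows (log axis) in each library, 4 wild-type on the left of the dotted line and 6 Shb-inactivated on the right, 1 symbol per gene; lines only join points of 1 gene, since replicates have no order. All 11 rows are highest in W1, and 8 are lowest in S5, where Gpr143 stays at 2.55 FPKM.

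Added up, the 11 rows came to 1213, 211, 302 and 94.2 FPKM in W1 to W4. In S1 to S6 they came to 22.1, 161, 77.0, 366, 15.6 and 101 FPKM. The highest sum was 77.9 times the lowest. As a share of all FPKM the sum was 0.237% in W1 and 0.00278% in S5. Set against Pecam1, the transcript of CD31 itself, Dct was 73.6% of it in W1, 3.67% to 14.3% in the other wild-type libraries and 0.368% to 15.1% in the inactivated libraries. Pecam1 was itself higher in every inactivated library than in any wild-type one, so this ratio also reflects the level of Pecam1. No library of B16F10 cells alone was analysed here, so these values are not shares of cells. In sorted bulk RNA, fewer melanoma cells and less pigment RNA per cell cannot be told apart.

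Between the groups, the pigment genes had lower means in Shb-inactivated libraries, but no member passed the test. All 11 rows had a log2 fold change below 0, against 48.8% of all 12805 genes tested, with a median of -1.44 against 0.0055 over all genes. In limma 0 of the 11 rows had a Benjamini-Hochberg adjusted p under 0.05 (each adjusted p 0.989), as did 0% of all genes. At an unadjusted p under 0.05 there were 3 of 11 (Tyr, Tyrp1 and Trpm1), and 442 of 12805. The member rows moved together between libraries (median pairwise r 0.933), and Slc45a2 is counted in both of its rows. These counts are therefore not of independent genes. In no member did the groups separate, and 0.18% of all genes had every inactivated library below every wild-type one.

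Dct fell short of the threshold with 156 ± 178 FPKM (SD, n = 4) against 41.6 ± 47.4 (SD, n = 6). Its log2 fold change was -2.04 (SE 0.95, 95% interval -4.15 to 0.07; limma adjusted p 0.989; exact permutation p = 0.1 over 210 splits). Tyrp1 was 122 ± 144 and 28.8 ± 28.5 FPKM, with a log2 fold change of -2.03 (SE 0.89). Tyr was 10.3 ± 11.1 and 2.75 ± 2.43 FPKM, with a log2 fold change of -1.44 (SE 0.61) and the smallest exact permutation p of the members (p = 0.081; 210 splits could give 0.00476). Gpr143 differed least, at 2.30 ± 1.95 and 1.56 ± 0.66 FPKM (log2 fold change -0.25, SE 0.31; exact permutation p = 0.538). W1 was 4.12 times the next library for Tyr, 4.16 times for Tyrp1 and 2.05 times for Gpr143.

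Without W1, 10 of 11 rows stayed below 0 and the median was -0.86. Dct was then 68.9 ± 37.3 FPKM (SD, n = 3) in wild-type libraries, 1.66 times the inactivated mean instead of 3.76 times. Sox10 was 1.33 ± 0.50 FPKM, 1.20 times the inactivated mean instead of 4.80, and the second Slc45a2 row 1.34 times instead of 7.10. Gpr143 turned, with a log2 fold change of 0.10. W1 also had the lowest Pecam1 level (569 FPKM, against 745 to 864 in the other wild-type and 873 to 1237 in inactivated libraries) and low small nucleolar RNA. Leaving out the 3 libraries low in small nucleolar RNA gave log2 fold changes of -1.14 for Dct and -0.43 for Sox10. Leaving out the 3 libraries rich in myeloid transcripts gave -2.62 and -1.34. With the mean log2 level of the pan-endothelial genes as a covariate the median of the 11 rows was -0.75. The part of these library properties in the difference was not tested.

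**Figure D2:**
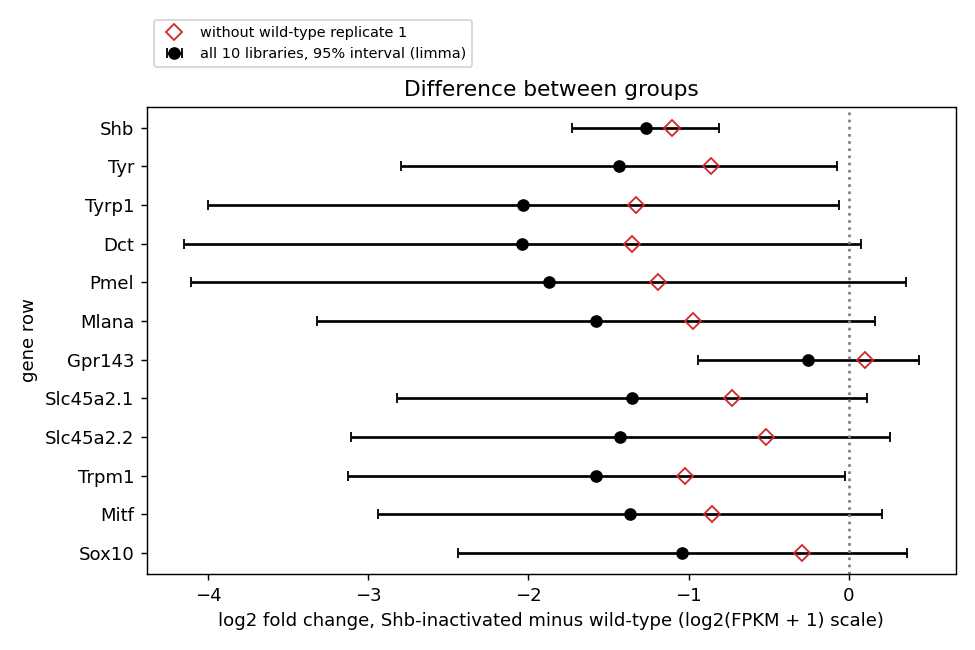
Log2 fold change (Shb-inactivated minus wild-type, log2(FPKM + 1) scale) of Shb and the 11 member rows, with the limma 95% interval (black bars) over all 10 libraries and the value without W1 (open diamonds). Intervals of the members are wide, from -4.15 to 0.07 for Dct, and without W1 every member row lies closer to 0 or, for Gpr143, above it.

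The members agreed closely with each other from library to library. Over the 55 pairs of rows the median Pearson r of log2(FPKM + 1) was 0.933, and over the 45 pairs without Gpr143 it was 0.955 (0.771 to 0.994). Without W1 the median of these 45 pairs was 0.934. Members share the library they are measured in and were chosen as genes of 1 cell type, so these values are descriptive.

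Agreement was then set against Dct, the most abundant member, with every other tested gene fitted in the same way. Dct was taken as the anchor with earlier results of these data known. Members were chosen as genes of 1 cell type, so agreement among them could be foreseen, and the counts below are descriptive too. A positive correlation with an adjusted permutation p under 0.05 was found for 9 of the 10 other member rows and for 0.859% of all 12804 genes. The median r of all genes was -0.03. Tyrp1 ranked first of all genes (r = 0.994, Spearman rho = 1.0, both with permutation p = 1e-05, the smallest that 100000 resamples give; adjusted p 0.00674 and 0.0183). Trpm1 had r = 0.986 and rho = 0.979, Pmel r = 0.984 and rho = 0.952, and Mlana r = 0.981 and rho = 0.988. The first Slc45a2 row had r = 0.974, Tyr r = 0.964 and Mitf r = 0.955. The adjusted permutation p of these 7 rows by r was 0.00674 to 0.0119. Sox10 (r = 0.867, rho = 0.903, permutation p = 0.00014, adjusted p 0.0239) and the second Slc45a2 row (r = 0.843, rho = 0.867, permutation p = 0.00048, adjusted p 0.04997) followed less closely. The call of the second Slc45a2 row was kept in 2 of 16 alternatives, and with another pseudocount, TPM scaling or quantile normalization 8 rows passed. By rho, Mitf, Sox10 and the second Slc45a2 row did not pass (adjusted permutation p 0.0992, 0.103 and 0.170).

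Gpr143 was the exception among the members. Its r with Dct was 0.491 (permutation p = 0.154, adjusted p 0.450) and its rho 0.406 (permutation p = 0.245, adjusted p 0.607), which placed it at rank 1942 of 12804 genes. Its r with the other members had a median of 0.501, and of 0.851 without S5. Its level there was 0.560 of that of Dct, and it was 0.0125 to 0.206 elsewhere. Without W1 its r with Dct was -0.04.

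The other members kept a high r with Dct without the extreme libraries. Without W1 and S5, the libraries farthest from the median of Dct, r was 0.993 for Tyrp1, 0.982 for Trpm1, 0.962 for Pmel, 0.904 for Mitf, 0.785 for Sox10 and 0.744 for the second Slc45a2 row. Within the 6 Shb-inactivated libraries r was 0.996 for Tyrp1, 0.980 for Pmel, 0.967 for Tyr, 0.926 for Mitf, 0.852 for Sox10 and 0.782 for the second Slc45a2 row. Among the 7 libraries not low in small nucleolar RNA the 9 rows kept an r of 0.858 to 0.992, and among the 7 not rich in myeloid transcripts 0.913 to 0.998. In these sets of 7 libraries, with 5040 pairings, 0 of the 9 rows passed the adjusted permutation threshold (adjusted p 0.0977 to 0.181 and 0.0696 to 0.112). Without S1, 3 rows passed.

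Relative to Dct, the other rows apart from Gpr143 ranged less than their own levels did. Tyrp1 was 0.599 to 0.968 of Dct, a 1.62-fold range, where the level of Tyrp1 itself ranged 102-fold. Pmel ranged 2.1-fold relative to Dct, Tyr 2.16-fold and the first Slc45a2 row 1.92-fold. Mitf ranged 3.99-fold, Sox10 4.55-fold, Trpm1 4.96-fold and the second Slc45a2 row 10.5-fold, whereas the ratio of Gpr143 to Dct ranged 45-fold and its level 5.44-fold. Dct and Tyrp1 together made up 50.2% to 62.9% of the summed member FPKM in every library.

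Some ratios differed between the myeloid-rich libraries and the rest, a comparison chosen after the values were seen. Tyr was 0.0469 to 0.0530 of Dct in W3, S3 and S4, and 0.0641 to 0.101 in the other 7 libraries. Pmel was 0.497 to 0.606 of Dct in those 3 libraries and 0.288 to 0.544 in the other 7, ranges that overlap. Mitf reached its highest ratio, 0.376, in S3, and was 0.163 and 0.112 in the other 2 of the 3. The 10 macrophage markers summed to 30.4 to 5534 FPKM in wild-type and 27.3 to 4314 FPKM in inactivated libraries; their part in these ratios was not tested. Ratios of the wild-type and inactivated groups overlapped for each of the 10 rows set against Dct.

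**Figure D3:**
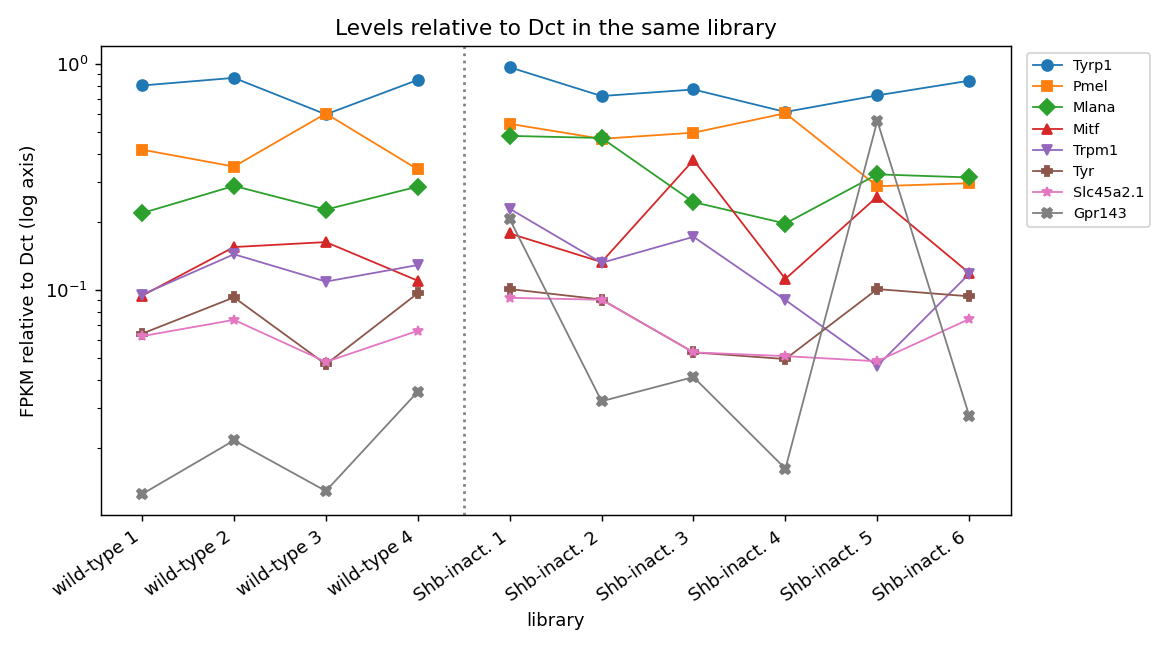
FPKM of 8 member rows divided by that of Dct in the same library (log axis), 4 wild-type libraries left of the dotted line and 6 Shb-inactivated right of it; lines only join points of 1 gene. Tyrp1 stays between 0.599 and 0.968, Tyr is lowest, 0.0469 to 0.0530, in the 3 myeloid-rich libraries (W3, S3 and S4), and Gpr143 rises to 0.560 in S5.

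The genes outside the set that followed Dct most closely were, in order, Ptgds (r = 0.987), Rab38 (0.986), Unc5c (0.980), Oca2 (0.974), Epha3 (0.971), Hmga2 (0.968), Dmxl2 (0.967), Gjb2 (0.962), Gsta1 (0.960) and Slc24a5 (0.956), each with an adjusted permutation p of 0.00674 to 0.01 over 10 libraries. Their rho ran from 0.927 (Gsta1, adjusted permutation p 0.0631) to 1.0 (Unc5c). Rab38 is a small GTPase of melanosome cargo transport, Oca2 a melanosomal anion transporter or channel and Slc24a5 a cation exchanger of pigment cells. Ptgds makes prostaglandin D2, Unc5c is a netrin receptor, Epha3 an ephrin receptor, Hmga2 a chromatin protein, Gjb2 a gap junction protein and Gsta1 a glutathione transferase. Ptgds was 22.3, 5.13, 6.26 and 3.22 FPKM in W1 to W4 and 0.55 to 10.7 FPKM in inactivated libraries. Of the 9 of these genes with a RefSeq promoter window, 2 held CATGTG in any window. The share of all windows was 12.3%, which is by window and not by gene.

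Among the other genes of pigment cell biology, 13 of 48 tested genes in 3 lists correlated positively with Dct at the adjusted threshold, which 0.859% of all genes passed. Of 29 tested genes for melanosome transport and biogenesis, 7 correlated positively with Dct with an adjusted permutation p under 0.05 and 0 negatively, and the median r was 0.608. The 7 were Rab38, Oca2, Slc24a5, Tspan10, Mlph, Rab27a and Mreg, and all but Mreg passed by rho as well (Mreg adjusted permutation p 0.0632). The most abundant genes of that list did not pass: Bloc1s1, a subunit of the BLOC-1 complex (r = -0.535), the tetraspanin Cd63 (r = 0.454) and the motor Myo5a (r = 0.701). The r of Bloc1s1 was 0.890 without W1 and S5, so its sign rested on those libraries. Bloc1s1 was 67.3 ± 18.3 FPKM (SD, n = 4) in wild-type and 73.5 ± 8.16 (SD, n = 6) in inactivated libraries.

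Of 12 tested melanocyte receptors and factors, 3 passed in the positive direction and 0 in the negative. They were Pax3, a neural crest factor upstream of Mitf (r = 0.939), the neuregulin receptor Erbb3 (r = 0.896) and Sox5 (r = 0.834), of which Sox5 did not pass by rho (adjusted permutation p 0.185). The most abundant ones did not pass: the endothelin receptor Ednrb (r = -0.637), the receptor Kit (r = -0.632) and Met, the hepatocyte growth factor receptor (r = 0.786). Ednrb was 347 ± 96.5 FPKM (SD, n = 4) in wild-type and 461 ± 113 (SD, n = 6) in inactivated libraries, and was lowest, at 206 FPKM, in W1. Its r was 0.393 without W1 and S5. Met was 138 FPKM in W1 and 12.8 to 29.7 FPKM elsewhere. Of 7 tested genes known from melanoma, 3 passed (Ptgds, Cdh19 and S100b), Cdh19 not by rho (adjusted permutation p 0.0503), and 0 passed in the negative direction. Mcam (r = -0.629), S100a1 (r = 0.099) and Syngr1 (r = 0.824) were the most abundant and did not pass.

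Between the groups, 0 genes of the 3 lists passed limma. Their median log2 fold changes were -0.46 for receptors and factors (9 of 12 below 0), -0.17 for transport and biogenesis (21 of 29) and -0.60 for the melanoma genes (4 of 7), against 48.8% of all genes below 0. Without W1 the medians were -0.17, -0.17 and -0.33. The lists mix genes that followed Dct with genes that did not, and those that followed it moved together. The counts in this paragraph are therefore not of independent genes. At an unadjusted p under 0.05 there were 1, 1 and 2 genes: Pax3, Rab38, and Cdh19 and S100b. Of all genes, 442 of 12805 reached that level, so 1 of 29 and 1 of 12 are counts near the background. Cdh19, a cadherin of neural crest derivatives, was 8.66 ± 8.45 and 2.15 ± 1.74 FPKM (log2 fold change -1.49, SE 0.55, limma adjusted p 0.989).

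**Figure D4:**
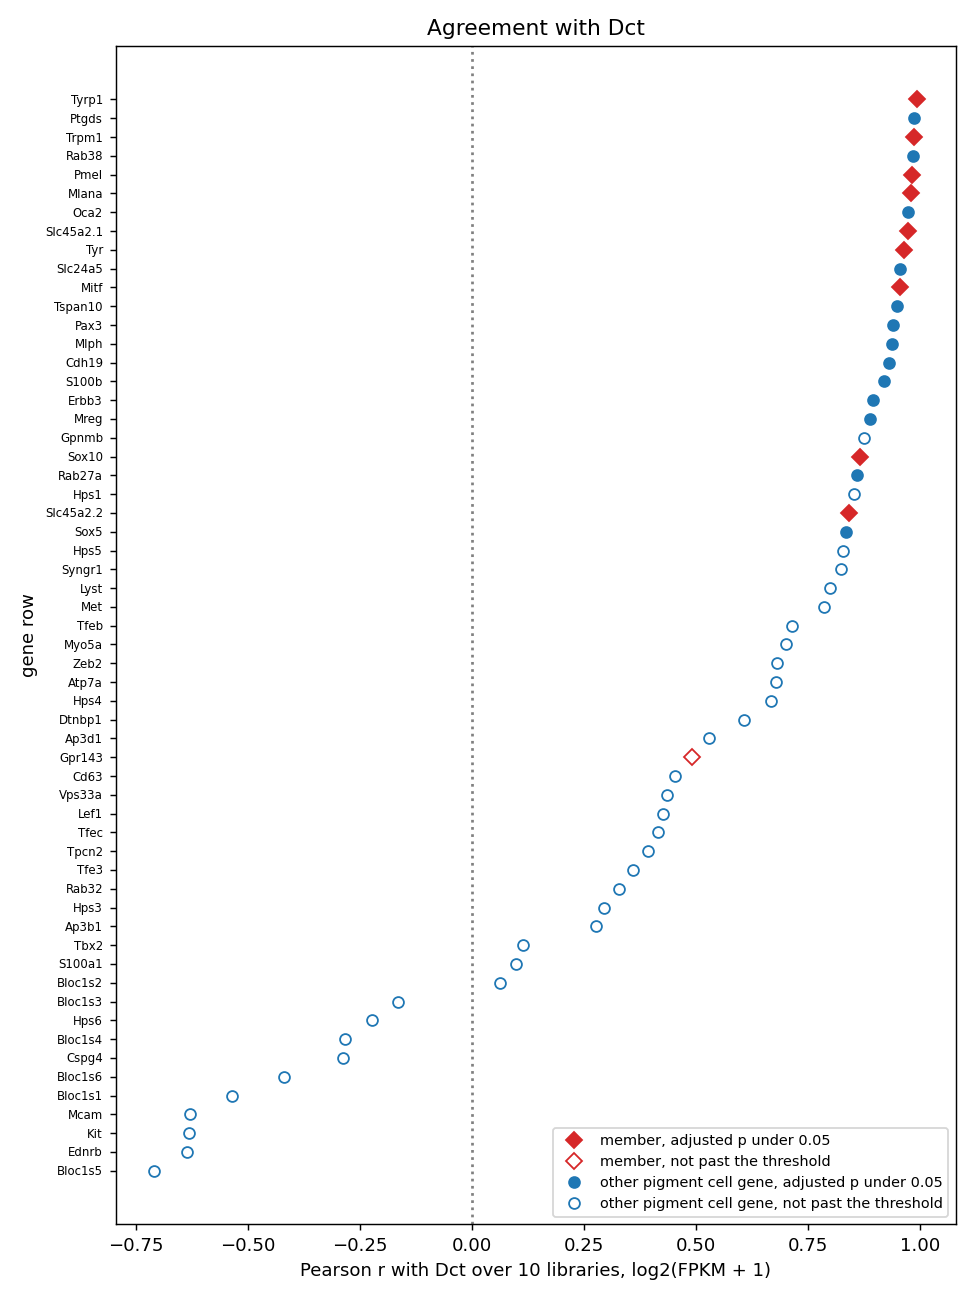
Pearson r with Dct over the 10 libraries for the 10 other member rows (diamonds) and 48 further tested genes of pigment cells (circles), in order of r; filled symbols have a permutation p under 0.05 after adjustment over all 12804 genes. Tyrp1 and Rab38 lie near 1, Gpr143 at 0.491, and Ednrb, Kit, Mcam and Bloc1s5 below -0.6.

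Other cells could also carry single members, and their markers were read from the same libraries. Of the Schwann cell markers, 9 of 10 had a row; they summed to 30.7 to 120 FPKM in wild-type and 24.2 to 129 FPKM in inactivated libraries, led by Pmp22 and Mbp. Gfra3 was at most 0.01 FPKM in any library, whereas S100b, Cdh19 and Erbb3, which are also in the pigment cell lists, followed Dct as above. The 6 mast cell markers summed to at most 2.39 FPKM in any library and had no value above 0.77 FPKM (Cpa3). The 4 keratinocyte markers summed to at most 2.84 FPKM, and each was highest in S6. Krt5 was listed at 0 in every library but S6, where it was 0.16 FPKM. Pericyte and fibroblast markers, led by Col3a1 and Rgs5, summed to 111 to 425 and 50.8 to 591 FPKM, and T and B cell markers, led by Cd79b and Lck, to 27.9 to 58.2 and 7.29 to 41.1 FPKM.

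Remaining Shb transcript was compared with the pigment genes, since the tumour cells were not from the floxed mice. Within the inactivated group, S4 had the highest Shb and the highest Dct and S5 the lowest of both, while S1 combined low Dct (5.63 FPKM) with the third highest Shb. Among wild-type libraries, W1 was the highest in both, and the other 3 lay between 2.78 and 3.27 FPKM of Shb while Dct ranged from 31.5 to 106 FPKM.

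Over the 6 inactivated libraries 10 of the 11 rows had a positive r with Shb, as did 54.7% of all genes, and 0 passed after adjustment over 12804 genes, as did 0% of all genes. The exact permutation over 720 pairings gave an unadjusted p under 0.05 for 4 of the 11 rows, all positive, against 3.87% of all genes with a positive r. These were Sox10 (r = 0.882, exact p = 0.025), the second Slc45a2 row (r = 0.870, exact p = 0.0306), Mlana (r = 0.853, exact p = 0.0319) and the first Slc45a2 row (r = 0.848, exact p = 0.0347), each with an adjusted p of 0.513. Their rho was 0.771 for Sox10 and 0.829 for the others (exact p = 0.103 and 0.0583, adjusted p 0.552). Dct had r = 0.754 (exact p = 0.075, adjusted p 0.513), Mitf r = 0.562 (exact p = 0.263, adjusted p 0.613) and Gpr143 r = -0.06 (exact p = 0.907, adjusted p 0.966). The member rows moved together between libraries, so the counts of rows here are not of independent genes. No correlation over both groups together is given, since Shb separates them.

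Several of these relations rested on 2 libraries. Without S4 and S5, the farthest from the median of Shb, r was 0.260 for Dct, 0.256 for Tyrp1, 0.336 for Pmel and -0.15 for Mitf. For Gpr143 it was 0.929. It was 0.808 for Sox10, 0.911 for the second Slc45a2 row and 0.596 for Mlana over the same 4 libraries. The log2 fold change of Shb between groups was -1.27 (SE 0.21, limma adjusted p 0.989). With log2(FPKM + 1) of Dct as a covariate, an alternative chosen after the data were seen, it was -0.97 (SE 0.19, limma adjusted p 1.0).

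**Figure D5:**
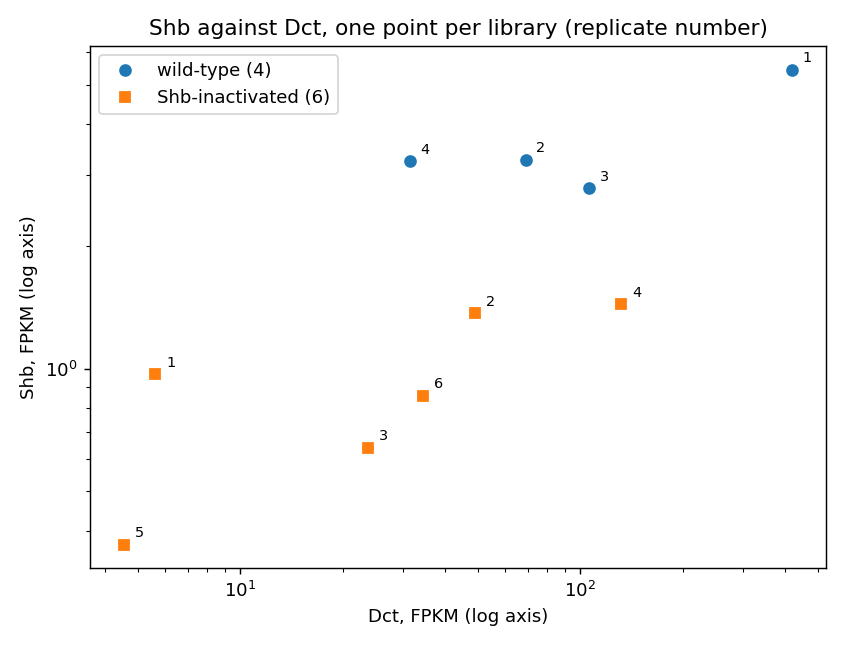
Shb against Dct in FPKM (both axes log), 1 point per library labelled with its replicate number, wild-type as circles and Shb-inactivated as squares. The wild-type points lie between 2.78 and 5.44 FPKM of Shb and the inactivated ones between 0.37 and 1.44 FPKM, while the Dct ranges of the groups overlap.

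The positions of the genes are given in GENCODE vM21 on GRCm38, and each is protein-coding. Dct lies on chromosome 14 from 118012790 to 118052244 (minus strand), overlapped by the antisense gene 4930435M08Rik, and Tyrp1 on chromosome 4 from 80834123 to 80851719. Tyr (87424771 to 87493512, minus strand) and Trpm1 (64153835 to 64269775) lie on chromosome 7. Pmel lies on chromosome 10 from 128704195 to 128720238 and overlaps Cdk2 and Dgka at its ends, on the opposite strand. Mlana lies on chromosome 19 from 29697824 to 29708634, Gpr143 on chromosome X from 152781921 to 152808646 and Mitf on chromosome 6 from 97807052 to 98021349. Slc45a2 (11000721 to 11029233) and Sox10 (79154908 to 79165240, minus strand) lie on chromosome 15. Whether the authors' counting used strand is not given in the sources used here, so reads of Dct, Pmel, Mitf (antisense pseudogene Gm15531) and Trpm1 (Gm44722 and Mir6416 on the opposite strand, Gm44719 and Mir211 on its own) cannot be told apart from those of the genes that overlap them.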

How the data were processed

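Per the labels' protocols, cells were sorted magnetically, ribosomal RNA was depleted and a stranded total RNA kit was used. The authors deposited 1 table of FPKM per library, per the file headers, with a comma as decimal mark. TopHat2 2.1.1, Cufflinks 2.2.1 and GRCm38 are named in the submitters' processing notes; the annotation used is not given in the sources used here.

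Values were taken as log2(FPKM + 1), which understates fold changes of low genes, and 12805 genes reaching 1 FPKM in 4 or more libraries were tested. Groups came from the sample titles. Comparisons used limma 3.58.1 (R 4.3.3, mean-variance trend, two-sided, no covariate), with Benjamini-Hochberg adjustment over all tested genes. Single members were also tested with an exact permutation over all 210 splits, two-sided. Correlations used two-sided permutation of libraries (100000 resamples, or all pairings for 6 or 7 libraries). Both steps were tested on simulated data with noise drawn separately for each gene. In the limma simulation no gene was given more spread than the median gene. The simulations therefore do not show how the steps perform on rows that move together. No label says that replicates came from separate animals; the series text counts 4 and 6 mice. The p-values thus reflect variation among these libraries, which may be technical.

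Named genes were the members, Shb, the 10 closest followers of Dct with a mean of at least 1 FPKM and no clone-type symbol, the 3 most abundant genes and those passing limma of each pigment list, and the 2 most abundant of each marker list; others named were chosen after their values were seen. The members and lists were chosen with earlier results of these data known. Promoters came from RefSeq (GRCm38.p6). Alternatives changed the pseudocount, filter, scaling, weights, covariate, replicate block and libraries. Plots used matplotlib 3.10.9.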

Additional observations from a re-analysis of the deposited data

Results flagged for a closer look

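In 24 groups of values (11 member rows and Shb in each group), 8 had a highest library separated from the next by more than Dixon's 95% limit. About 1 in 20 groups would be set apart by chance if values were normal and groups separate. These were untransformed FPKM of rows that move together, so the 8 cannot be set against that rate. Of the 8, 6 were in wild-type library W1: Tyrp1 at 337 FPKM, Tyr at 26.9, Gpr143 at 5.22, Sox10 at 17.3 and the Slc45a2 rows at 26.2 and 35.01 FPKM. The other 2 were in Shb-inactivated library S4, with Dct at 132 FPKM and Pmel at 79.9 FPKM.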

How the results depend on the processing

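Over 21 alternatives no member row passed limma, and 226 of 228 fold changes of member rows kept their direction; the exceptions were Gpr143 without W1 (0.10; -0.415 to 0.103 with each library left out) and without W1, S1 and S2, low in small RNA (0.14). The median of the 11 rows ran from -1.91 to -0.86 with 1 library left out and from -1.92 (pseudocount 0.1) to -0.75 (pan-endothelial covariate) otherwise. With library quality weights 1 gene of all passed, Shb (log2 fold change -1.14, adjusted p 0.0387). The number of member rows correlated with Dct ran from 3 to 9 with 1 library left out, and was 0 without W1, S1 and S2 and 0 without the myeloid-rich W3, S3 and S4, where fewer libraries limit the p-value. The r of Gpr143 with Dct turned to -0.0417 without W1 (-0.0417 to 0.801 with each library left out) and to -0.206 without W1, S1 and S2, and its r with Shb to 0.915 without S5 (-0.417 to 0.915); the cause was not tested. The median turned to 0.07 for receptors and factors at a mean of at least 5 FPKM and to 0.04 for transport and biogenesis with the pan-endothelial covariate. Same-numbered libraries of the groups deviated together for numbers 1 and 3 and not for 2 and 4 (correlations 0.436, -0.319, 0.707 and -0.546). None was most like its own number. No label says what the numbers mark, and a batch that spans several numbers would not show in this check. A shared batch was thus not tested. With the replicate block 0 members passed and their median was -1.18. Depth is unknown, so values under about 0.1 FPKM are uncertain.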
